A study of Caenorhabditis elegans with 3 samples.

Results

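Divergent promoters are stretches of DNA between the 5′ ends of 2 genes that are transcribed away from each other. Here they were examined for DRAP-1, in 482 of 30000 candidate regions (1.61%) from chromatin immunoprecipitation followed by sequencing (ChIP-seq) in Caenorhabditis elegans. A candidate was a member if its summit lay upstream of, and within 500 bp of, the annotated 5′ ends of 2 protein-coding genes on opposite strands. By rule, 8 candidates at pairs with a histone gene named his were left out. The members lie at 460 distinct gene pairs, of which 438 hold 1 member and 22 hold 2, and 477 of the 482 summits lie outside coding genes. The comparison class is the 3100 candidates whose summit is within 500 bp upstream of 1 coding gene only, called single-gene candidates below. From this class 7 candidates at a his gene were left out.

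All values come from 1 group of 3 biological replicates, numbered 2, 3 and 4, with no comparison group. The worms were of strain OP700, which carries the integrated transgene wgIs700, encoding DRAP-1 fused to a TY1, EGFP and 3xFLAG tag, together with unc-119(+) as the rescue marker in an unc-119(tm4063) background. The material was whole embryos of mixed stage and both sexes obtained by egg bleaching, with an age of 3 hours, so cell types cannot be told apart. The sample descriptions give an anti-GFP antibody, while the antibody label names drap-1. Chromatin was sheared by sonication. The tagged copy is expressed beside any endogenous protein, and OP700 is 1 line.

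DRAP-1 is the worm relative of the DR1-associated protein, a subunit of negative cofactor 2. That complex binds the TATA-binding protein on promoter DNA and can block the entry of further general factors, and in other species it has also been linked to active promoters. In a divergent pair, 1 short stretch serves as the promoter region of both genes. Many worm messenger RNAs are trans-spliced, so an annotated 5′ end can lie downstream of the true start of transcription, and distances below are to annotated ends.

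The stretches between divergent ends differ in length and composition. Sequences are from the RefSeq copy of WBcel235, the assembly that ce11 names, written along the plus strand from the minus-strand gene on the left to the plus-strand gene on the right. In the first set, capitals mark the bases around the summit. Whole intervals between the ends are shown for the 2 narrowest with an IDR member and for a pair of small heat shock protein genes whose summit lies close to 1 end. They are ears-2/uncp-18 (IV:390469-390559), C01G10.10/C01G10.9 (V:15082442-15082529) and hsp-16.2/hsp-16.41 (V:1804958-1805177).
ears-2/uncp-18: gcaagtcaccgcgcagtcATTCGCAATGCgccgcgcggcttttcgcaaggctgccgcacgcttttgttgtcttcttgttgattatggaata
C01G10.10/C01G10.9: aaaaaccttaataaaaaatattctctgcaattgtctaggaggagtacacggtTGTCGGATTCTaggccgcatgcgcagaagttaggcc
hsp-16.2/hsp-16.41: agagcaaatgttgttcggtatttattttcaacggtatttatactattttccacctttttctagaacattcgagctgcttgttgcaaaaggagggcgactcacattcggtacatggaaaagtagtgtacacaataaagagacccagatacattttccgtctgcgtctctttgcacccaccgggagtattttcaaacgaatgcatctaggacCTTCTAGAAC
In ears-2/uncp-18 the stretch holds CGCG 3 times, the nearest 8 bp from the summit, and 53.8% of its 91 bases are G or C. In hsp-16.2/hsp-16.41 the summit lies 5 bp from the end of hsp-16.41.

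The next set gives the summit with 50 bases on either side for 2 ribosomal protein pairs, rpl-18A/Y17G9B.5 (IV:4750017-4750117) and rpl-15/K11H12.8 (IV:654876-654976). Capitals again mark the summit.
rpl-18A/Y17G9B.5: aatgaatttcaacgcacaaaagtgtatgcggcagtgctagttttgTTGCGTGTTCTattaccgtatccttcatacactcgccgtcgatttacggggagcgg
rpl-15/K11H12.8: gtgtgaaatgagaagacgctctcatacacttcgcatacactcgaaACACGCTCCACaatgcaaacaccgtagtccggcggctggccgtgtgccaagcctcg
The window of rpl-18A/Y17G9B.5 is 46.5% G or C and that of rpl-15/K11H12.8 55.4%.

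The last set shows 3 strong IDR members on III and V that hold a GC box (GGGCGG on either strand) within 50 bp of the summit, with the box in capitals. They are rnf-121/C16C10.4 (III:4171126-4171226), nmad-1/hach-1 (III:5555106-5555206) and algn-13/R10D12.13 (V:13962169-13962269).
rnf-121/C16C10.4: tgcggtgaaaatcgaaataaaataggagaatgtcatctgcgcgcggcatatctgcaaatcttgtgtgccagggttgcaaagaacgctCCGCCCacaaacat
nmad-1/hach-1: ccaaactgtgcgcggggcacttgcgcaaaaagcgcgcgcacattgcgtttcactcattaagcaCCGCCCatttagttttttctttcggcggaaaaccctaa
algn-13/R10D12.13: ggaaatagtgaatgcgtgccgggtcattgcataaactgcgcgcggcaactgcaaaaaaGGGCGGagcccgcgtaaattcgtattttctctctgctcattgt
The left edge of the box is 37, 13 and 8 bp from the summit in these windows, in that order. The same window at each of the 129 IDR members occurs once in the genome, so no summit stretch had an exact copy elsewhere.

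The first comparison asked whether candidates shared by 2 divergent genes are among the strong and repeatable regions more often than those upstream of 1 gene. The irreproducible discovery rate (IDR) list holds the 1468 regions that the authors kept, which are also the 1468 of highest signal in the pooled list. Of the members, 129 of 482 were in it (26.8%, exact 95% interval 22.9 to 31.0), against 382 of 3100 single-gene candidates (12.3%, 11.2 to 13.5) and 4.89% of all pooled candidates. The odds ratio was 2.60 and the difference 14.4 percentage points (95% interval 10.5 to 18.7). Members made up 8.79% of the IDR list and single-gene candidates 26.0%. The median signal was 78.8 at members and 55.1 at single-gene candidates, on the caller's scale, which is not stated. Intervals cover the counting of regions only, and the read depth is unknown, because the lists hold no read counts.

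The same difference was seen in each replicate. Among the 1468 highest regions of replicates 2, 3 and 4, a summit lay within 100 bp for 112, 113 and 105 of the 482 members (23.2%, 23.4% and 21.8%). It did so for 324, 322 and 334 of the 3100 single-gene candidates (10.5%, 10.4% and 10.8%), and for 4.52%, 4.57% and 4.49% of all candidates. Every replicate's share at members was above every share at single-gene candidates. The mean was 22.8% ± 0.904 at members and 10.5% ± 0.207 at single-gene candidates (SD, n = 3). The difference was 12.3 ± 1.11 points (SD, n = 3) and positive in 3 of 3 replicates. The two-sided exact sign-flip permutation p was 0.25, the smallest that 3 replicates can give and above the usual threshold. Each replicate's own candidates, classed by their own summits, gave 23.5%, 26.5% and 27.4% at divergent pairs, against 10.6%, 11.2% and 11.8% at single genes.

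**Figure D1:**
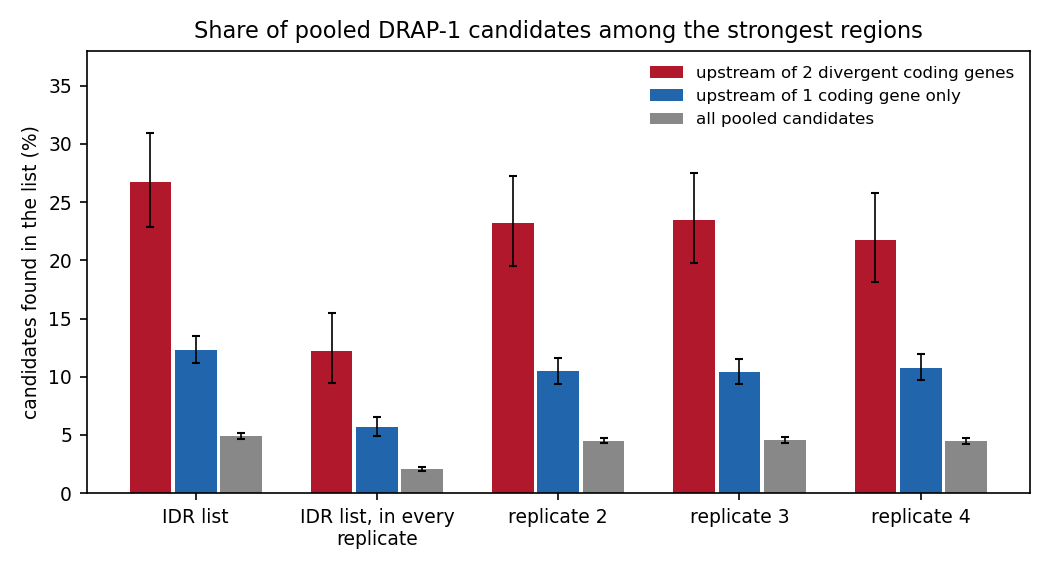
Share of candidates (vertical axis, %) found in the IDR list, in the IDR list and every replicate, and among the 1468 highest regions of each replicate. Bars stand for candidates at divergent pairs, single-gene candidates and all pooled candidates, with exact 95% intervals. In the IDR list the bars are at 26.8%, 12.3% and 4.89%.

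A member has 2 coding 5′ ends and so more ends to count. With the ends counted anew for each candidate, members carried 13.4 IDR regions per 100 ends (129 over 964 ends) and single-gene candidates 12.3. The 2 classes were close on that count. It leaves out annotated ends without a candidate and repeats ends that have several. Counted over pairs and genes, 128 of 460 pairs had an IDR member (27.8%, 23.8 to 32.2) and 379 of 2867 single genes had an IDR candidate (13.2%). Of 1714 annotated divergent pairs whose ends are up to 1000 bp apart, 458 held a member (26.7%) and 128 an IDR member (7.47%). Of 16473 other coding genes, 2548 had a single-gene candidate (15.5%) and 324 an IDR candidate (1.97%).

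Members lie nearer to an end by construction, so the classes were also set side by side at matched distance. Within 100 bp of the nearest end, 43 of 182 members were in the IDR list (23.6%), against 53 of 632 single-gene candidates (8.39%). Beyond 100 and up to 200 bp the shares were 28.2% at members and 13.9% at single-gene candidates, and beyond 200 and up to 300 bp they were 31.5% and 16.6%. The intervals of the classes did not overlap in these 3 bins. Beyond 300 bp members were few, with 8 of 32 up to 400 bp and 2 of 9 up to 500 bp, and the intervals overlapped. By the space between the 2 ends, 14 of 71 members were in the IDR list up to 250 bp (19.7%), 66 of 234 up to 500 bp (28.2%), 41 of 144 up to 750 bp (28.5%) and 8 of 33 beyond (24.2%), with overlapping intervals.

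**Figure D2:**
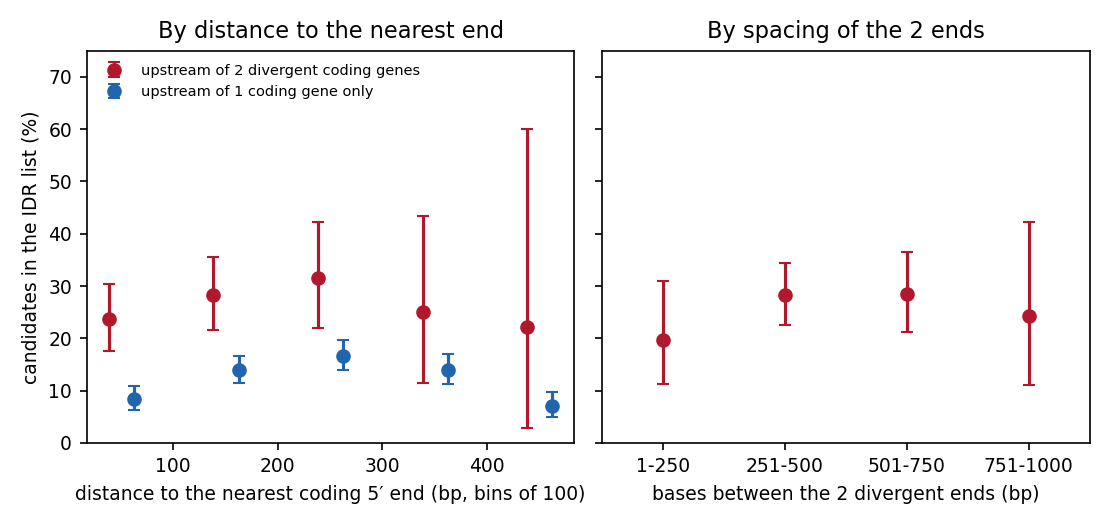
Share of candidates in the IDR list (vertical axis, %) by distance of the summit to the nearest coding 5′ end (left, bp) and, for members, by the bases between the 2 ends (right, bp). Points are shares with exact 95% intervals, members left of single-gene candidates. Within 100 bp the shares are 23.6% and 8.39%.

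The share also varied with what else lay near the summit. A noncoding 5′ end lay within 500 bp of 72 members, of which 24 were in the IDR list (33.3%, 22.7 to 45.4), against 105 of the 410 other members (25.6%, 21.5 to 30.1). Of the single-gene candidates, 96 of 458 near such an end were in the list (21%), against 286 of 2642 (10.8%) of the rest. Without candidates near any noncoding end the difference between members and single-gene candidates was 14.8 points. None of the 5 members inside a coding gene was in the IDR list, and 622 single-gene candidates lay inside one, of which 46 were. Against single-gene candidates outside coding genes the difference was 13.2 points.

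By chromosome, IDR members were 32 of 106 on I, 18 of 80 on II, 21.6% (25 members) on III, 29 of 80 on IV, 22 of 80 on V and 3 of 20 on X. The share ran from 15% on X to 36.3% on IV, with overlapping intervals. For single-gene candidates it was 15.7% on X, where 89 of 568 were in the list, and 10.7% to 12.9% on the other chromosomes. The X holds 568 single-gene candidates but only 20 members.

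The share of IDR members that repeated across replicates was near that of single-gene IDR candidates, with overlapping intervals. Of the 129, 59 were among the 1468 highest regions of every replicate (45.7%, 36.9 to 54.7), 43 of 2 replicates, 24 of 1 and 3 of none. Of the 382 single-gene ones, 176 were found in every replicate (46.1%, 41.0 to 51.2). The median pooled rank was 721 at IDR members and 700 at single-gene ones. Among the 50 highest of the 30000 pooled regions were 2 of the 482 members and 10 of the 3100 single-gene candidates. Among the 100 highest were 3 and 18, and among the 200 highest 13 and 44. As shares of their class, members and single-gene candidates were close among the 50 and 100 highest, where members were few. Among the 200 highest the share of members was the larger.

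The pair ears-2/uncp-18 had the strongest member (IV:390331-390636, signal 619.2), with ranks of 19, 78 and 72 in replicates 2, 3 and 4. RefSeq names the products a mitochondrial glutamyl-tRNA synthetase and a syntaxin-binding protein, and their ends are 91 bp apart with the summit 24 bp from ears-2 and 68 bp from uncp-18. The next, chst-1/C41C4.9 (II:8107138-8107491, signal 615.1), ranked 74, 34 and 36. It lies 342 bp from chst-1, a carbohydrate sulfotransferase gene, and 43 bp upstream of the snoRNA gene C41C4.11. The third, dad-1/tre-1 (I:6554559-6554816, signal 469.5), ranked 61, 214 and 73 and lies 27 bp from the trehalase gene tre-1, 412 bp from dad-1, an oligosaccharyltransferase subunit gene, and 7 bp inside the noncoding RNA gene F57B10.17. The part of these noncoding genes in the signal was not tested.

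Ribosomal protein genes followed in the order of signal. The rpl-18A/Y17G9B.5 member (IV:4749939-4750194, signal 458.1) ranked 76, 160 and 88, and the rpl-15/K11H12.8 member (IV:654776-655052, signal 455.1) ranked 66, 166 and 111. Their summits lay 289 bp from rpl-18A and 350 bp from rpl-15. At I:1958426-1958702, spe-48/spgt-1 had a signal of 446.0, with the ends 179 bp apart and signals of 197.4, 126.9 and 119.9 in replicates 2, 3 and 4. The pair of fib-1, the gene for the rRNA methyltransferase fibrillarin, and mut-15, a mutator gene, had a signal of 440.6 (V:15002209-15002472; ranks 77, 126 and 121).

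This pair is the only 1 of the 460 with 2 IDR members. Its second member had a signal of 149.6, with the summit 11 bp from mut-15 and 309 bp from fib-1. It ranked 1945 and 627 in replicates 2 and 3, and no summit lay within 100 bp of it in replicate 4. The rest of the 15 strongest members found among the highest regions of every replicate ran from 395.3 at dnj-29/ndua-2, a J-domain chaperone gene and a gene of respiratory complex I, to 290.3 at rps-20/ekl-4. Between them lay rps-19/hsr-9 (366.4), rnf-121/C16C10.4 (355.5), nmad-1/hach-1 (344.8), snx-13/snr-1 (340.7, with snr-1 coding for the spliceosomal protein Sm D3), ska-3/rps-12 (337.1) and vps-51/lin-35 (296.4). lin-35 is the worm retinoblastoma-like gene, and vps-51 a vesicle-tethering gene. None of these 15 members ranked below 459 in any replicate.

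At the lower limit of the IDR list, the strongest members outside it were trr-1/C47D12.2 (signal 126.5), ZK688.5/fahd-1 (126.2) and C37C3.9/C37C3.18 (126.1). The weakest signal in the list was 126.7. At the 500 bp limit the outermost members were snt-2/rps-29 (499 bp from rps-29, signal 117.7) and F31D4.2/fkb-6 (497 bp from fkb-6, signal 125.0), both outside the IDR list. Just beyond it lay rpn-1/ribo-1, nearest the limit (signal 35.0), and ifet-1/rps-3A at 503 bp (signal 246.4), and the last was in the list.

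The next comparison asked where between the ends DRAP-1 lies. A position of 0% is the end of the minus-strand gene and 100% that of the plus-strand gene. The median position was 53.2% at the 129 IDR members (quartiles 41.9 to 67.8). Their summits lay a median of 14.5% of the interval from its middle (quartiles 6.13 to 25.3), or 57.0 bp, against 17.6% (6.83 to 30.2) or 64.5 bp at the 353 other members. Between 33.3% and 66.7% of the way lay 73 of 129 IDR summits (56.6%, against 172 of 353 at other members, 48.7%). Of the remaining IDR summits, 23 lay nearer the minus-strand gene and 33 nearer the plus-strand gene. Within 10% of either end lay 14 of the 129 IDR summits and 34 of the 353 others. The rule requires both ends within 500 bp, so a wide interval can only hold summits near its middle.

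The replicates did not separate strong from weak members by position. The median distance from the middle at the highest regions of replicates 2, 3 and 4 was 13.0%, 15.3% and 16.3% (mean 14.8% ± 1.68, SD, n = 3). At lower-ranked regions it was 16.2%, 17.1% and 13.3% (15.5% ± 1.94). Both sets were drawn from all member pairs, so a high and a lower region need not share a pair. The values overlap, and the order is reversed in replicate 4. The share between 33.3% and 66.7% was 54.1% ± 2.37 at the highest regions and 52.0% ± 4.12 at the lower ones.

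**Figure D3:**
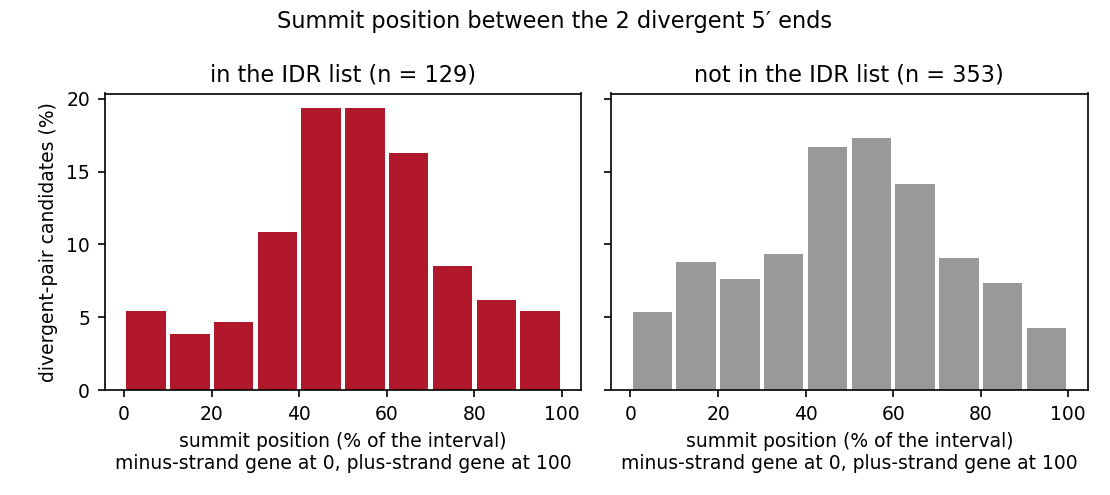
Summit position between the 2 ends (horizontal axis, % of the interval) of the 129 members in the IDR list and of the 353 others, as the share of each set (vertical axis, %) in bins of 10%. Both sets are highest near the middle, with 73 of 129 and 172 of 353 between 33.3% and 66.7%.

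Replicate summits were looked for within 100 bp of the pooled summit, which limits their spread by construction. Of the IDR members, 120 of 129 had a summit within 100 bp in all 3 replicates, with a median SD of 20.0 bp (quartiles 11.6 to 30.6). Of the other members 102 of 353 did, with a median SD of 30.8 bp (21.7 to 43.9). The spread at ears-2/uncp-18 was 6.08 bp and at rpl-18A/Y17G9B.5 2.52 bp.

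The narrowest interval with an IDR member was that of C01G10.10 and C01G10.9, a predicted mitochondrial tRNA-modifying enzyme gene and a methylthioribose-phosphate isomerase gene, at 88 bp (signal 157.4). It ranked 711 and 676 in replicates 2 and 3, and had no summit within 100 bp in replicate 4. let-504/srrt-1, a pair that includes the Serrate homologue gene, had 137 bp (signal 134.9, ranks 12879, 801 and 1458). The widest were rtfo-1/K09G1.1 at 900 bp (190.2; ranks 730, 792 and 602) and sqv-3/vha-1 at 899 bp (138.8; ranks 2887, 692 and 7160). rtfo-1 encodes the RTF1 homologue of the elongation machinery and vha-1 a proton pump subunit.

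The summit lay nearest to the middle at F44E5.4/F44E5.5 (49.9%), T05A12.3/T05A12.4 (49.5%) and rps-15/F36A2.9 (50.6%). It lay nearest to an end at zip-4/nol-58 (2.11%, 7 bp from zip-4), hsp-16.2/hsp-16.41 (97.7%, 5 bp from hsp-16.41) and ran-3/C26D10.3 (97.6%, 8 bp from C26D10.3). At zip-4/nol-58 there was no summit within 100 bp in replicate 2, and the ranks in replicates 3 and 4 were 605 and 562.

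Gene groups were then counted over pairs, beside the 27.8% of all pairs that had an IDR member. The lists were matched by gene symbol, so genes of a group under other symbols are missing from them. Pairs with a gene in any of the 18 lists were in it in 73 of 200 cases (36.5%), and pairs with none in 55 of 260 (21.2%).

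Cytosolic ribosomal protein genes build the ribosome, and 18 of 33 such pairs had an IDR member (54.5%, exact interval 36.4 to 71.9). Of the 33 pairs, 17, 14 and 16 had a member counted in replicates 2, 3 and 4, in the IDR list or not. The mean was 47.5% ± 4.63 (SD, n = 3), against 23.8% ± 0.823 over all pairs. In 11 pairs an IDR member was found in all 3 replicates. Of single ribosomal protein genes, 12 of 30 had an IDR candidate. A noncoding 5′ end lay within 500 bp of 9 of the 18 members, among them snoRNA ends at ska-3/rps-12, tmem-107/rps-26 and rpl-7A/set-21, and its part was not tested. In rps-10/rpl-24 both genes code for ribosomal proteins (signal 145.4, ranks 3297, 1119 and 637).

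In the 17 other such members the partner was of another kind. The summit was nearer the partner in 11 and nearer the ribosomal protein gene in 6, with a median of 271 bp to the ribosomal protein gene and 190 bp to the partner. Among such members outside the IDR list, some of them second members of the same pairs, it was nearer the partner in 13 of 18. At single ribosomal protein genes in the IDR list the median distance was 310.5 bp, against 236.5 bp at all single-gene IDR candidates. The summit of rpl-12/lin-54 was the nearest to its ribosomal gene, at 14 bp, and that of calf-1/rpl-8 the farthest, at 410 bp. LIN-54, like LIN-35, is a subunit of the DREAM complex that represses cell cycle genes.

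**Figure D4:**
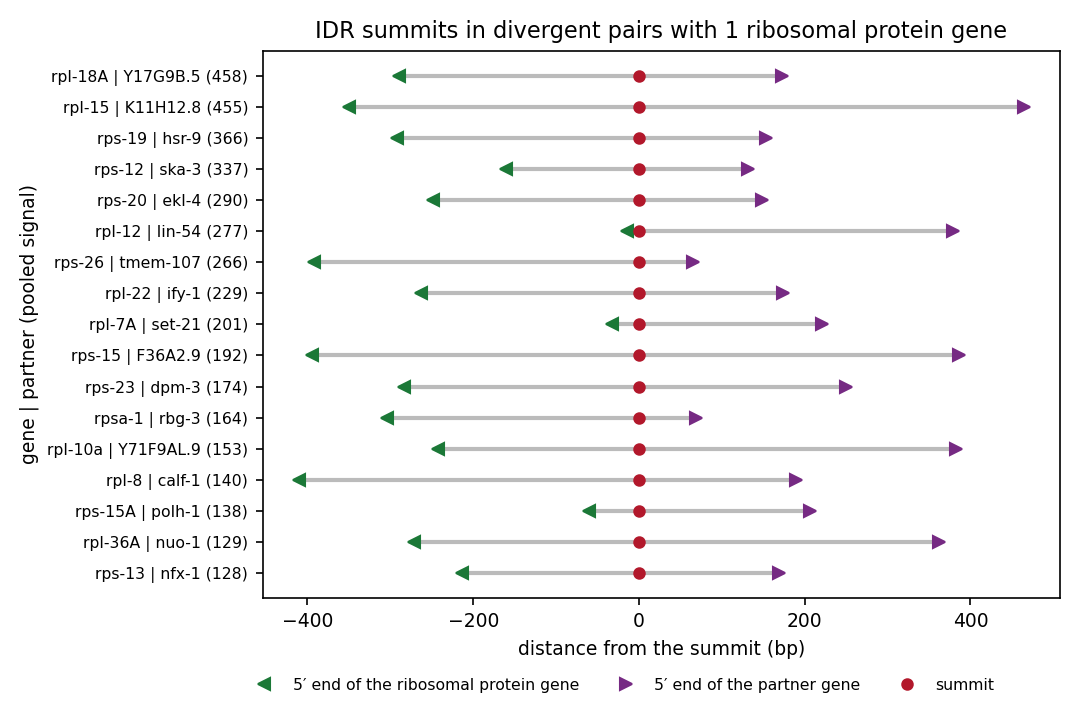
Distance from the summit (horizontal axis, bp, 0 at the summit) to the 5′ end of the ribosomal protein gene (left) and to that of the partner (right), for 17 IDR members, ordered by pooled signal (in brackets). In 11 of 17 the partner end is the nearer one.

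Chaperone genes, whose products fold other proteins, had 13 of 20 pairs with an IDR member (65.0%, 40.8 to 84.6), and 7 of 17 single genes (41.2%). Of the 20 pairs, 13, 9 and 9 had a member counted in replicates 2, 3 and 4, in the IDR list or not. In 4 pairs an IDR member was found in all 3. The members included 5 at subunits of the CCT folding complex or of prefoldin, among them cct-8/Y55F3AR.2 (signal 267.3, ranks 188, 740 and 273). In F44E5.4/F44E5.5 both genes code for HSP70 proteins (signal 185.9, ranks 541, 853 and 1559). In hsp-16.2/hsp-16.41 both code for small heat shock proteins (136.6, ranks 2873, 759 and 7435), so it was among the 1468 highest regions of replicate 3 only. The hsp-110/rpn-3 member joins a chaperone gene with a proteasome gene (162.5, ranks 694, 2848 and 1195). A noncoding 5′ end lay near 6 of the 13 members.

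Chromatin and transcription genes were few. Histone modifier and chromatin genes had 6 of 10 pairs in the IDR list, led by F29B9.11/jmjd-1.2 (263.4), with a lysine demethylase gene, and drr-2/set-16 (256.3). The list of developmental transcription factor genes had 5 of 6, with lin-35, lin-54, lin-53, lin-61 and zip-4. Not all of these code for transcription factors, and lin-53, a putative histone-binding protein gene, is also in the chromatin list. The list of RNA polymerase subunit, general factor and Mediator genes had 5 pairs and no IDR member, with signals of at most 57.8. Outside that list, Y62E10A.20/Y62E10A.23, with a RefSeq product named Mediator complex subunit 9, was an IDR member (245.8, ranks 577, 412 and 313). Cuticle collagen genes had 0 of 4, which allows a share of up to 60.2%, while col-38/rpl-5 ranked 995 in replicate 3 and col-2/ndc-80 ranked 744 in replicate 4 (both named after their values were seen). These numbers are too small to order the lists.

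The exact intervals of the other groups all held the 27.8% of all pairs. Splicing genes had 6 of 18, among them rsp-2/rsp-1, a pair of SR protein genes (159.8, ranks 1112, 894 and 1018), and snrp-40.1/F08G12.3 on X (186.1). Proteasome and ubiquitin genes had 5 of 17, led by F49C12.9/rpn-7 (236.2), vesicle traffic genes 5 of 19 and nuclear pore and transport genes 4 of 17, led by dvc-1/ima-1 (221.8). The sec-61.B/trap-3 member (254.4, ranks 266, 451 and 320) joins genes for 2 parts of the protein channel of the endoplasmic reticulum and lies 36 bp upstream of a noncoding RNA gene. Translation factors had 4 of 10, with eef-1A.1/rfc-4 (228.8) 22 bp upstream of mir-5549 and clsp-1/eef-2 (169.3) 29 bp from eef-2. The respiratory chain list had 4 of 12, led by grld-1/cox-6C (154.8). It lacks ndua-2 and F29B9.11, a cytochrome c oxidase gene by its RefSeq product. Their IDR members were stronger (dnj-29/ndua-2, 395.3, and F29B9.11/jmjd-1.2, 263.4). The list also lacks nduf-6, an NADH dehydrogenase gene by its RefSeq product. Its member at nars-1/nduf-6 was outside the IDR list (119.6). Mitochondrial ribosome genes had 3 of 14, led by gly-7/mrpl-39 (150.9). Actin, tubulin and motor genes had 2 of 7, led by gmps-1/cap-2 (151.3), and tRNA synthetases 1 of 5. The cell division and replication list had 4 of 28 (14.3%, 4.03 to 32.7), of which npp-3/top-2 had a signal of 219.2. It lacks genes such as tim-1, ska-3 and pola-1, which had IDR members, and dna-2, which had a member outside the IDR list. The share therefore covers the listed symbols only. Among chemoreceptor pairs rsr-1/sri-5 had a signal of 243.3, and nhr-142/F44E7.9 (229.4) was the only nuclear receptor pair.

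The sequence around the summit held more G and C at IDR members than at the others. The median G and C content within 50 bp was 48.5% at IDR members (quartiles 45.5 to 52.5) and 42.6% at other members, and at single-gene candidates 51.5% and 43.6%. A GC box (GGGCGG, both strands) lay within 50 bp of 24 of 129 IDR members (18.6%, 12.3 to 26.4). It lay there at 5.38% of other members, at 9.95% of single-gene IDR candidates, at 5.70% of the remaining single-gene candidates and at 4.32% of all candidates. In the replicates' own candidates the share was 16.5%, 17% and 18.6% at divergent pairs among the highest regions, against 4.53%, 4.82% and 5.35% at lower ones. For single genes it was 11.2%, 10.8% and 10.03% among the highest regions. Every value at highly ranked divergent pairs was above every value of the other sets, with means of 17.4% ± 1.09 and, at highly ranked single genes, 10.7% ± 0.608 (SD, n = 3).

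Other consensus sequences were counted in the same windows. CGCG lay near 52.7% of IDR members and 41.4% of other members, against 54.2% and 25.5% at single-gene candidates. A TATA core (TATAAA) lay near 2.33% of IDR members and 7.93% of other members, and the share was also lower at IDR single-gene candidates (3.66% against 6.55%). Runs of 6 T were at 27.1% of IDR members and 36.0% of the others, against 15.4% and 26.7% at single-gene candidates. They were at 20.6% of all candidates, below both member shares but inside the exact interval at IDR members (19.7 to 35.7). GAGAGA was at 14% of IDR members and 11.6% of the others, against 23.3% of single-gene IDR candidates. The bases GAANNTTC lay near 9.30% of IDR members and 6.23% of other members, against 2.62% and 4.08% at single-gene candidates. CCAAT lay near 20.9% of IDR members and 13.0% of other members. CCAAT was at 13.6% of single-gene IDR candidates, 18.8% of the remaining single-gene candidates and 21.03% of all candidates, so IDR members were at the share of all candidates. GCGTCTC lay near 9.30% of IDR members and 4.53% of others, against 8.64% and 4.19% at single-gene candidates. CACGTG lay near 1.55% of IDR members and 2.27% of others, TGACGT near 3.88% and 5.10% and TGATAA near 3.88% and 3.68%. Over all candidates these shares were 2.78%, 3.79% and 5.57%, each inside the exact interval at IDR members. For CGCG the share over all candidates was 19.6%, for TATAAA 4.78% and for GAGAGA 10.4%. For GAANNTTC it was 5.403% and for GCGTCTC 2.55%. A match is a description of the letters in the window, and the base composition moves with these shares. Its part in them was not tested.

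**Figure D5:**
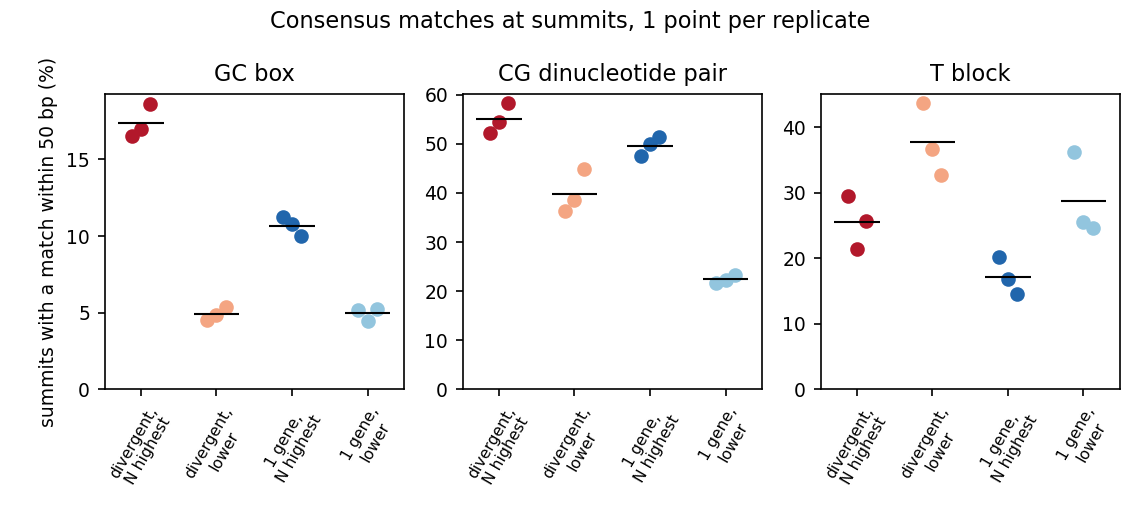
Share of each replicate's own summits with a match within 50 bp (vertical axis, %) for the GC box, the CG dinucleotide pair (2 in a row) and the T block (6 in a row), at divergent pairs and single genes, among the 1468 highest regions (N) and among lower ones. Points are replicates and lines their means. The GC box is at 17.4% of highly ranked divergent summits on average, and at 10.7% of highly ranked single-gene ones.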

How the data were processed

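DRAP-1 ChIP-seq was analysed from 5 lists in narrowPeak layout on ce11 coordinates, as the README texts deposited with the samples state. The authors derived a list of peaks and background from each replicate and 2 control files, a pooled list from the 3 replicates, and the IDR list from these. Each candidate list holds 30000 regions. Caller, version and IDR threshold: not given in the sources used here. The deposited signal was used to rank regions within a list, since its scale is not stated. The deposited −log10 q-value was not used, and the summit offset was used as deposited. Depth is unknown for all lists.

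Gene ends came from Ensembl release 115 (WBcel235), with symbols and products from RefSeq paired for 46881 of 46890 genes. No region lay beyond a chromosome end. Scripts used Python 3.11.15, pandas 2.3.3, numpy 2.4.6, scipy 1.17.1 and matplotlib 3.10.9. A candidate was counted in a replicate if 1 of its 1468 highest regions had a summit within 100 bp. Shares carry exact Clopper-Pearson 95% intervals, and replicate differences an exact sign-flip permutation test. The difference between the IDR shares carries a Newcombe interval. The classing of summits was checked on simulated data.

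Named pairs were the 15 strongest IDR members found in every replicate, the 3 narrowest and 3 widest intervals, the 3 summits nearest the middle and 3 nearest an end, up to 2 pairs per gene list and pairs with both genes in 1 list, pairs with 2 IDR members, and those at the limits of the IDR list and the 500 bp window. Members and lists were chosen with earlier results of these data known, and some gene lists were corrected after their values were seen. Pairs named outside the rule (tmem-107/rps-26, rpl-7A/set-21, calf-1/rpl-8 and algn-13/R10D12.13) were chosen after seeing values. The replicate sequence shares were added after seeing the data. Some values and sequences that the rule names are not reported here.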

Additional observations from a re-analysis of the deposited data

How the results depend on the processing

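The difference in IDR share between members and single-gene candidates was positive under all 15 alternatives. It was 10.5 points with a 250 bp window, 7.16 with the stronger IDR regions alone and 6.56 with IDR peaks found in every replicate, with odds ratios of 1.99, 2.31 and 2.32. In the last 2 settings fewer regions count as called, so both shares fall by construction. Without each replicate in turn it ran from 8.02 to 8.77 points, where an IDR region had to be found in both other replicates, so both shares fall by construction there too. In the other 9 settings it stayed between 13.2 and 15.02 points, 1 of them chosen after seeing the data (outside coding genes and away from noncoding ends, 13.7 points). Pairs with an IDR member numbered 45 at 250 bp, 193 at 1000 bp, 59 with peaks found in every replicate and 71 to 75 without each replicate, against 128. The median distance from the middle was 8.80% at 250 bp, 17.4% at 1000 bp and 15.2% to 15.9% otherwise. The replicate difference was positive under all 8 alternatives, from 6.08 to 14.9 points, and from 11.9 to 12.9 without each replicate. Against 18 ribosomal protein and 13 chaperone pairs, a 250 bp window gave 5 and 3, peaks found in every replicate 11 and 4, and leaving out noncoding ends 9 and 7. Without each replicate the counts were 11 to 13 and 5 to 7.

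Groups could not be paired by replicate, because there is 1 group and no second group shares the replicate numbers. The sign-flip test paired members with single-gene candidates within each replicate. The reads of a left-out replicate remain in the pooled list. Annotated ends, an unknown depth and 3 replicates limit what the shares can show.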
